A study of Mus musculus with 6 samples.

Results

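The genes described here were the ATP-binding cassette (ABC) transporters of the mouse, compared between a cell line that is sensitive to an inhibitor of the epidermal growth factor receptor (EGFR) and a resistant line derived from it. Members were all genes whose symbol reads Abc, a letter from a to g, a number and an optional letter, and 48 of the 19938 genes measured through a probe set with a single gene symbol met that rule. Total RNA was hybridised to 6 Affymetrix mouse gene arrays, 3 for each line, and the deposited linear intensities were put on the log2 scale, so that a log2 fold change (FC) of 1 is a doubling. NME cells are NMuMG cells, an epithelial line from the mouse mammary gland, that were transformed by stable viral overexpression of EGFR. AGR cells carry the same EGFR overexpression and came from NME cells grown in three-dimensional culture on basement membrane extract with 1 µM AG1478, an EGFR tyrosine kinase inhibitor, until a large colony stood out, was picked and was expanded on plastic. The methods state that resistant lines, once established, were kept without drug. The resistant line is therefore 1 isolate, AGR and NME were each sampled from 1 line, and nothing in the sources used here says whether the 3 arrays of a line came from separate cultures, so p-values measure only the spread between arrays, which may be technical. Log2 FCs are AGR minus NME throughout.

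ABC proteins are a superfamily that share a cassette which binds and hydrolyses ATP. Most use this energy to move a substrate across a membrane, and they are known above all for the drug exporters, P-glycoprotein (Abcb1a and Abcb1b in the mouse), the multidrug resistance proteins of the Abcc branch and the breast cancer resistance protein Abcg2, which pump drugs and their conjugates out of cells. Other members carry cholesterol, phospholipids and sphingolipids, serve mitochondria, lysosomes or peroxisomes, or regulate potassium channels, and the Abce and Abcf proteins have no membrane domain and act in translation.

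Start-site windows were read for those genes on which the results turn, because motifs near a start show which regulator binding letters each gene carries there. The windows are RefSeq sequences on build GRCm38.p6 that run from 250 bases before to 50 bases after a start, and 38 of the 48 members had at least 1 window while 10 had none, among them Abcc1 and Abcc3. Abcc2 (chr19:43782058-43782357, plus strand) is shown as the member with an FC over 2 that had a window. Abcc4 (chr14:118706170-118706469, minus strand, the first of its windows), Abcb1a (chr5:8566841-8567140, plus strand) and Abcb1b (chr5:8797897-8798196, plus strand) were added after their values were seen, the first as another lower exporter and the others as the P-glycoprotein pair. Capitals mark matches, on either strand, to 5 motifs. The GC box, bound by Sp1 and its relatives, was searched as GGGCGG. The box bound by NF-Y was searched by the letters of its name, CCAAT. The E-box known from Zeb and Snail factors was searched as CACCTG. The antioxidant response element, read by the Nfe2l2 protein, was searched as TGACNNNGC. A site of the Hnf4a type was searched as CAAAGTCCA, and it has no match in the windows shown.
Abcc2: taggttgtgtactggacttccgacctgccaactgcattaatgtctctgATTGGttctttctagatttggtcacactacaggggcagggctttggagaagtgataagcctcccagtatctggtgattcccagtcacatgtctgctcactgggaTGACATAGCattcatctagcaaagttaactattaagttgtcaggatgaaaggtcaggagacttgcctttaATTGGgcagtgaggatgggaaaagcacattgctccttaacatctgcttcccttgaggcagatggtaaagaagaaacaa
Abcc4: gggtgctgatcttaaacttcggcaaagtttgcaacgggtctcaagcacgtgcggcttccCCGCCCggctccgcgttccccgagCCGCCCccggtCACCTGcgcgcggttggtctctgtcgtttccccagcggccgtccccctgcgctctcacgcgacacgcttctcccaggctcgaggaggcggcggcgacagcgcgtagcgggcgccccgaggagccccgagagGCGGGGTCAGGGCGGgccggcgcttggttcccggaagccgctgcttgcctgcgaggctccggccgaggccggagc
Abcb1a: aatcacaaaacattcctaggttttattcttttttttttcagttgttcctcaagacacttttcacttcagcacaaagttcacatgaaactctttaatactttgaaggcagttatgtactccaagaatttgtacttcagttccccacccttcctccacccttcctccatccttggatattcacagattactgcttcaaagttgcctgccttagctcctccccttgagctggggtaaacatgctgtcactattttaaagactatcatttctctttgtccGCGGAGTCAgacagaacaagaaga
Abcb1b: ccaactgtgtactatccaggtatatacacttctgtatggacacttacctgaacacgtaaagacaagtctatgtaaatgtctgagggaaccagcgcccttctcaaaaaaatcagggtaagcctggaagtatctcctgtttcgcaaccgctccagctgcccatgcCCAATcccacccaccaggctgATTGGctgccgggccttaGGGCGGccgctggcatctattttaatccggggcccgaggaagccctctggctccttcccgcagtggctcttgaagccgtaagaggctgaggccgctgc

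The Abcc2 window held 2 CCAAT boxes and 1 antioxidant response element, with a GC content of 45.0% and 1 CpG. In the first Abcc4 window there were 3 GC boxes, 1 CACCTG E-box and 1 antioxidant response element at a GC content of 72.7% and 41 CpGs, and the element directly adjoins 1 of the GC boxes. The second Abcc4 window, not shown, had 0 GC boxes, 0 CACCTG E-boxes and 1 antioxidant response element at a GC content of 47.3% and 6 CpGs. The 2 P-glycoprotein genes carried different letters, since the Abcb1a window had 1 antioxidant response element and a GC content of 40.3%, whereas that of Abcb1b had 1 GC box and 2 CCAAT boxes at 55.0%. Over all 32851 windows of this length the median GC content was 52.7% with a median of 7 CpGs. GC boxes stood in 35.7% of all windows and in 46.7% of the 45 windows of ABC genes, CCAAT in 37.4% and 35.6%, CACCTG in 20.2% and 37.8%, the antioxidant response element in 12.4% and 15.6%, and the Hnf4a-type site in 0.475% and 2.22%, which is 1 window, that of Abcd3. These shares count windows and not genes. Some windows of ABC genes overlap, such as those of Abcf2 and those of Abcg5 and Abcg8, so that 1 CACCTG can be counted more than once. A match of letters is a description of the sequence and not a bound site.

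Each array was of similar brightness, with medians over all probe sets between 190.4 and 200.8 linear intensity units. The table holds no detection calls, so the 95th percentile of 1190 olfactory and vomeronasal receptor genes, which serve sensory neurons, was taken as a background reference, at a log2 intensity of 7.24 in NME and 7.20 in AGR. Among 12 mammary epithelial markers, Krt8, Krt18, Krt19 and Cdh1 lay above that reference in both lines while Epcam, Elf5 and Pgr did not in either, 1 was higher in AGR (Gata3) and 3 were lower (Cdh1, Elf3 and Krt19), and the mean over the list ran from 9.57 to 9.62 on the NME arrays and from 9.33 to 9.37 on the AGR arrays. Markers of other epithelia included large falls. Of 10 hepatocyte markers 6 were lower in AGR and 1, Apob, was higher (list means 9.35 to 9.44 against 7.26 to 7.45), with Alb at −6.36 on the log2 scale and not above the reference in AGR, and of 8 intestinal markers 6 were lower (9.52 to 9.59 against 8.41 to 8.42), with Lgals4 at −5.60. In the remaining lists, 1 of 8 fibroblast markers was higher (Pdgfra), 2 of 6 macrophage markers were higher (Cd68 and Csf1r, while Ptprc and Adgre1 were not above the reference), 0 of 5 endothelial markers passed and 1 of 5 adipocyte markers was lower (Cidec). Over all genes, 12.6% were higher in AGR and 11.6% lower by the same test. Fewer cells of a type and less RNA per cell cannot be told apart in such bulk samples.

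At an adjusted p under 0.05 (limma, Benjamini-Hochberg adjustment over all 19938 genes), the AGR arrays were higher for 4 ABC genes, lower for 10 and not separable by the test for 34. This is 8.33% higher against 12.6% of all genes, and 20.8% lower against 11.6% of all genes. Among genes above the receptor reference in at least 1 line, 14.8% of members were higher against 18.2% of all such genes. For lower genes these shares were 37.0% and 16.2%. With an FC over 2 required as well, 0 members were higher and 2, Abcc2 and Abcc3, were lower, where 1.5% of all genes were higher and 1.5% were lower. The median log2 FC over the members was −0.04 against −0.02 over all genes, and the median absolute value was 0.09 for both. The arrays of the lines did not overlap for 20 members, or 41.7%, against 36.4% of all genes, and these included all 14 that passed and 6 that did not.

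The count of higher members depended on single arrays. Without AGR replicate 2 it was 7, with Abca1, Abca2 and Abcc5 added, and without NME replicate 1, NME replicate 2 or AGR replicate 3 it was 2, namely Abcc1 and Abcf3. The count of lower members stayed between 8 and 10 when any 1 array was left out. In all, 27 members lay above the receptor reference in at least 1 line, and none of the 21 that did not passed the test, with log2 FCs from −0.18 to 0.24. The median SD between arrays over the members was 0.07 in NME and 0.06 in AGR.

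**Figure D1:**
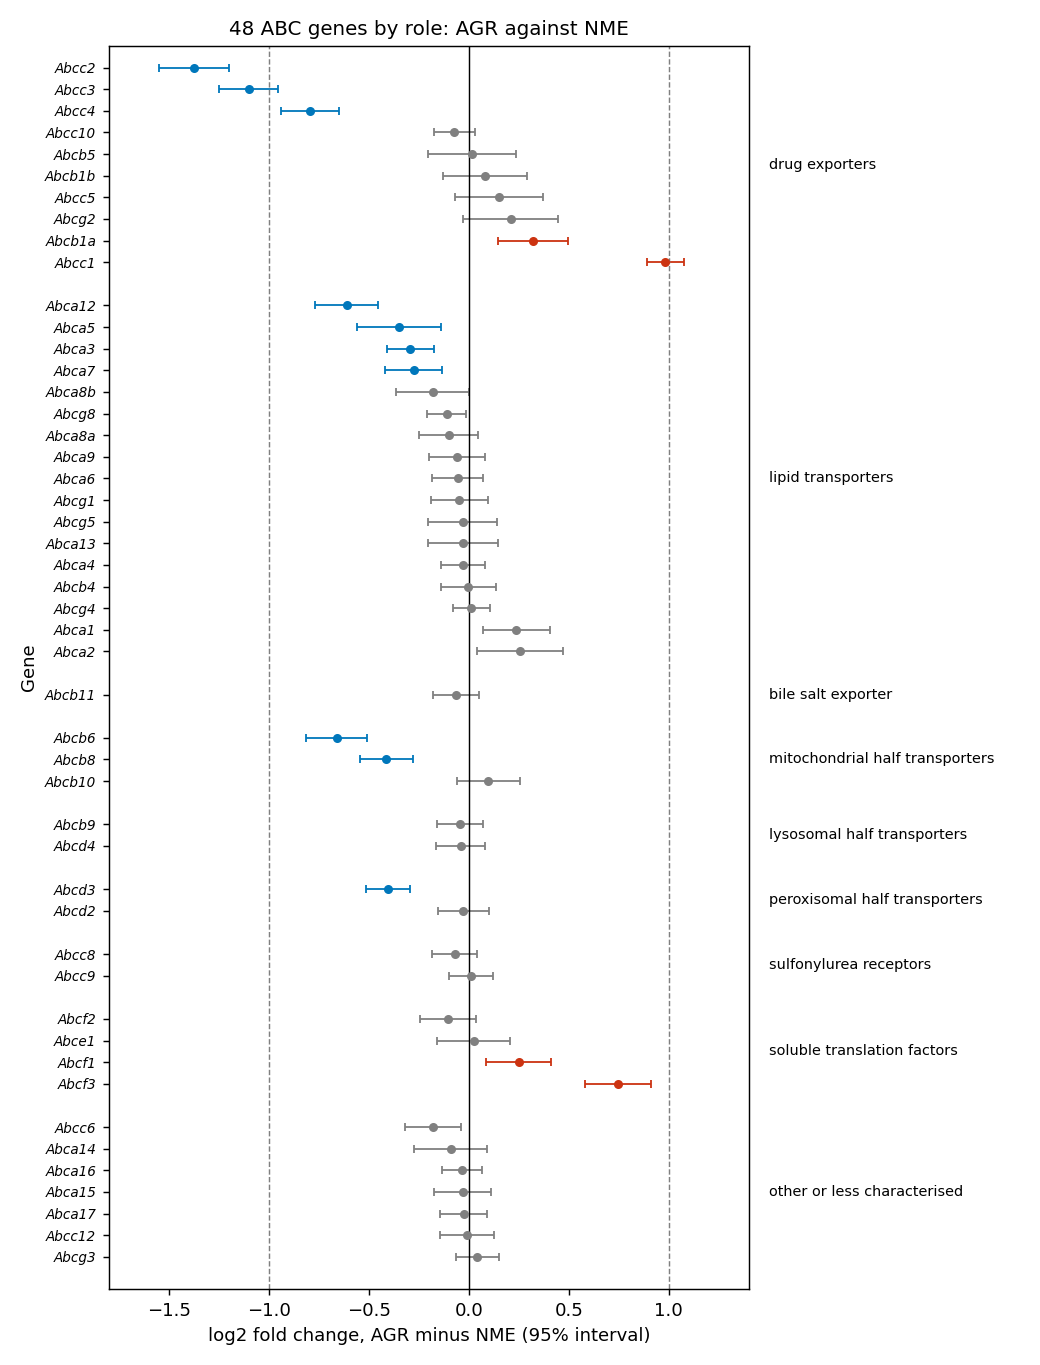
Log2 fold change (AGR minus NME, x axis) of the 48 ABC genes grouped by role, with 95% confidence intervals from limma as horizontal lines. The drug exporters span the range from Abcc2 at −1.37 to Abcc1 at 0.98, whereas lipid transporters lie between −0.61 and 0.26.

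The drug exporters were divided in their direction. Of 10 measured, Abcc1 and Abcb1a were higher in AGR, Abcc2, Abcc3 and Abcc4 were lower, and Abcb1b, Abcb5, Abcc5, Abcc10 and Abcg2 did not pass, a median log2 FC of 0.05. All but Abcb1b and Abcb5 lay above the reference in both lines. Of all genes, 12.6% were higher and 11.6% lower, and of all genes above the reference in at least 1 line, 18.2% and 16.2%.

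Abcc1 encodes multidrug resistance protein 1, an exporter of glutathione and glucuronide conjugates and of several anticancer drugs. Its log2 intensity was 10.96, 10.98 and 10.98 on the NME arrays and 11.94, 11.98 and 11.94 on the AGR arrays. Every AGR array was higher than every NME array, by a gap far beyond the SD of 0.01 to 0.02 within a line. The log2 FC was 0.98 (95% interval 0.89 to 1.08, limma adjusted p = 1.2e-05), an FC of 1.98 that lay just short of 2. NME replicates 2 and 3 hold the very same deposited value for this gene, which makes its SD in NME small. Values shared by at least 2 arrays, whether of the same line or not, occurred in 27.2% of all probe sets and in 22 of the 48 members. Within a line, as here, values were shared in 18 members, among them 1 of the 14 that passed, Abcc1 itself. The cause of the repeats was not tested.

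Abcb1a encodes the P-glycoprotein form that is prominent in the mouse gut and blood-brain barrier. It read 8.64, 8.60 and 8.65 in NME and 8.79, 9.06 and 9.001 in AGR. The groups did not overlap, but AGR replicate 1 lay closer to the NME arrays than to the other AGR arrays. The log2 FC was 0.32 (SE 0.07, limma adjusted p = 0.020), a call that was lost when any NME array or AGR replicate 3 was left out. The close paralog Abcb1b was at 6.56, 6.55 and 6.55 in NME and at 6.51, 6.84 and 6.56 in AGR, below the receptor reference, with a log2 FC of 0.08 (interval −0.13 to 0.29). How far these probe sets read each other's transcripts was not tested.

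Abcc2, Abcc3 and Abcc4 fell together and with the strongest statistics among the lower members. Abcc2 encodes the conjugate exporter of apical membranes, such as the bile canaliculus and the gut brush border. Its values were 9.13, 9.03 and 9.28 in NME and 7.70, 7.79 and 7.83 in AGR, so the lines stood well apart. Both means lay above the receptor reference, but the AGR mean of 7.77 was under the 99th percentile of the receptor genes, at 8.03. The log2 FC of −1.37 (SE 0.07, limma adjusted p = 4.2e-05) made it 2.59-fold lower in AGR, the most of any ABC gene here.

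Abcc3 encodes the related exporter of basolateral membranes, which carries glucuronides and bile salts. It measured 11.47, 11.44 and 11.59 in NME and 10.42, 10.32 and 10.46 in AGR. All NME arrays were higher than all AGR arrays, and the gene was 2.14-fold lower (log2 FC −1.10, SE 0.06, limma adjusted p = 5.0e-05). Abcc4 encodes an exporter of cyclic nucleotides, prostaglandins and nucleoside drugs. Here the arrays read 12.24, 12.26 and 12.16 in NME and 11.34, 11.52 and 11.41 in AGR, which did not overlap and gave a 1.73-fold lower level (log2 FC −0.79, SE 0.06, limma adjusted p = 1.8e-04). Each of these 3 calls was kept under all alternatives run. They moved beside the hepatocyte and intestinal marker lists given above, whose means were lower on every AGR array, and the part of those cell features in the exporters' change was not tested.

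The other exporters above the reference moved little. Abcg2, the breast cancer resistance protein, which exports urate and many kinase inhibitors and chemotherapeutics, was at 8.70, 8.32 and 8.64 in NME and 8.77, 8.72 and 8.79 in AGR. Its arrays did not overlap, although NME replicate 2 lay apart from its group, and the log2 FC of 0.21 carried an interval from −0.03 to 0.45 (limma adjusted p = 0.21). Abcc5, an exporter of cyclic nucleotides and nucleotide analogues, read 10.04, 9.93 and 10.05 in NME against 10.25, 9.96 and 10.28 in AGR. AGR replicate 2 fell within the NME range, and the log2 FC was 0.15 (interval −0.07 to 0.37, limma adjusted p = 0.32). It rose to 0.26 with an adjusted p of 0.018 without that array.

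Abcc10, which can export taxanes, was at 8.63, 8.61 and 8.61 in NME and 8.57, 8.49 and 8.57 in AGR, a log2 FC of −0.07 (interval −0.18 to 0.03). All NME arrays of Abcc10 were higher than its AGR arrays, although NME replicates 2 and 3 hold the same deposited value. The intervals leave room for changes up to 0.45 for Abcg2, up to 0.37 for Abcc5 and down to −0.18 for Abcc10. An equal level in the lines was therefore not shown for these genes. Abcb5, a P-glycoprotein relative, was measured by 2 probe sets that both lay below the receptor reference (brighter one 6.63 in NME and 6.65 in AGR), with a log2 FC of 0.02. Leaving out AGR replicate 2 raised the count of higher exporters from 2 to 3, and leaving out any NME array or AGR replicate 3 lowered it to 1, Abcc1.

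**Figure D2:**
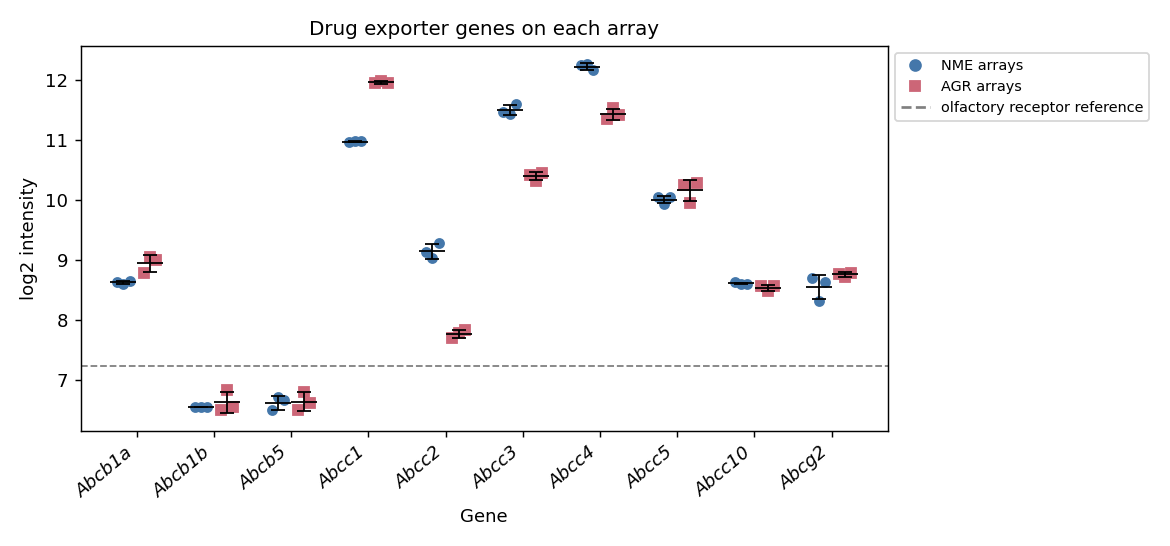
Log2 intensity (y axis) of the 10 drug exporters on each array, NME and AGR as separate symbols, with the mean and SD of the 3 arrays of a line, and a dashed line for the olfactory receptor reference. AGR arrays lie above NME arrays for Abcc1 and below them for Abcc2, Abcc3 and Abcc4, while Abcb1b and Abcb5 sit under the reference. Different genes are read by different probes, so heights are comparable within a gene only.

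Abcc1, Abcc5 and the translation factor gene Abcf3 all lie on chromosome 16, between Mettl22 and Etv5, a stretch delimited with results of these data known. Among the 128 other measured genes there that lay above the receptor reference, 72 were higher in AGR and 0 lower, with a median log2 FC of 0.36, whereas among the 277 such genes on the rest of the chromosome 54 were higher, 47 were lower and the median was −0.01. With genes at or below the reference included, the 170 others in the stretch had a median of 0.16, with 72 higher and 1 lower, against −0.02 over 475 genes elsewhere on the chromosome. Abcc1 at 0.98 was exceeded by 12 of the 128 genes, Abcf3 at 0.75 by 26 and Abcc5 at 0.15 by 85. Among the 20 nearest measured genes, whatever their level, 5 were higher and 0 lower around Abcc1 (median 0.12). Around Abcf3 10 were higher and 0 lower (median 0.24), and around Abcc5 10 were higher and 1 lower (median 0.24). Abcf3 and Abcc5 lie close together, so their sets share many genes and each set holds the other ABC gene. These are not separate observations. Around Abcc2 on chromosome 19, 2 were higher and 6 lower (median −0.12). Around Abcc3 3 were higher and 4 lower (median −0.06), and around Abcc4 3 were higher and 2 lower (median −0.01). Around Abcb1a, itself higher, 2 were higher and 7 lower (median −0.08). Of all genes, 12.6% were higher and 11.6% lower.

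**Figure D3:**
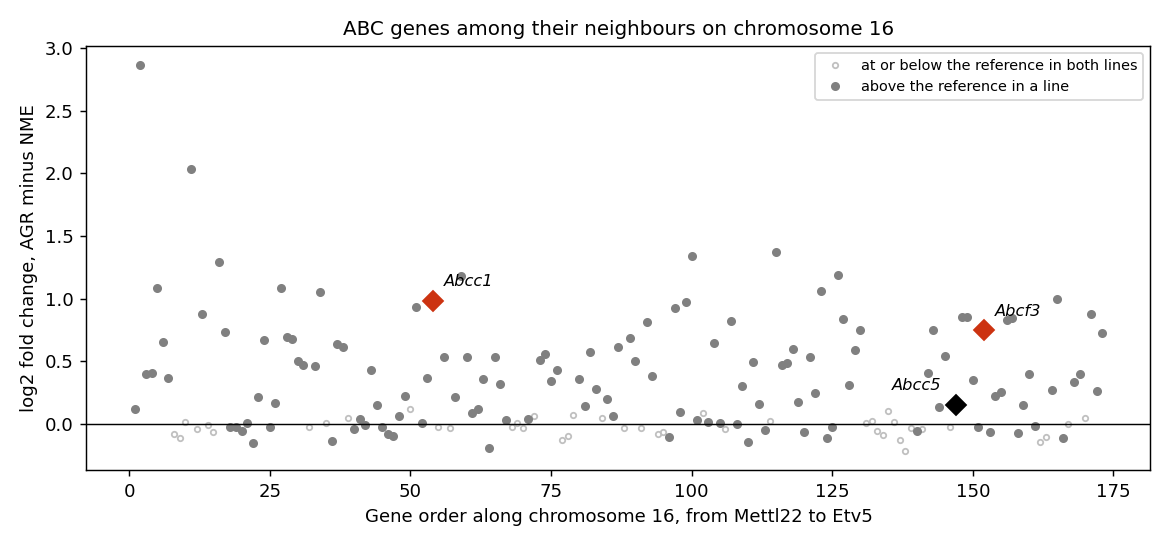
Log2 fold change (AGR minus NME, y axis) of the measured genes from Mettl22 to Etv5 on chromosome 16 by their order (x axis), with filled points for genes above the receptor reference in a line, open points for the others and diamonds for the 3 ABC genes, red where called. Of the 20 nearest genes 5 were higher around Abcc1, which stands at 0.98, and 10 around Abcf3, which stands at 0.75, while Abcc5 lies at 0.15.

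Of 17 lipid transporters measured, 0 were higher and 4 were lower in AGR, where 12.6% of all genes were higher and 11.6% lower. The median log2 FC was −0.06, and no change reached an FC of 2. In NME 7 of the 17 lay above the receptor reference. The call of Abca5 was lost under 6 of the 16 alternatives, among them leaving out any NME array or AGR replicate 3, and that of Abca7 under 4, among them leaving out NME replicate 1, AGR replicate 1 or AGR replicate 3. Without NME replicate 1 or AGR replicate 3 the lower count was 2, and without AGR replicate 2 the higher count became 2 (Abca1 and Abca2).

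The largest of the 4 was Abca12, which loads glucosylceramide into the lamellar granules of keratinocytes. It gave 7.22, 7.34 and 7.37 in NME and 6.79, 6.71 and 6.61 in AGR. The lines did not overlap, and only the NME mean passed the receptor reference, narrowly, so this change was measured at the edge of background (log2 FC −0.61, SE 0.07, limma adjusted p = 8.5e-04, 1.53-fold lower). Abca3, which carries surfactant phospholipids into lamellar bodies of the lung, was 1.22-fold lower, from 11.23 ± 0.05 in NME to 10.94 ± 0.05 in AGR (SD, n = 3; log2 FC −0.29, limma adjusted p = 0.0056). Abca5, a protein of late endosomes and lysosomes, had a log2 FC of −0.35 (limma adjusted p = 0.028), and Abca7, which handles phospholipids and acts in phagocytosis, one of −0.27 (limma adjusted p = 0.016).

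The best known cholesterol exporters did not pass. Abca1, which loads cholesterol and phospholipid onto apolipoprotein A-I, was at 6.92, 6.92 and 6.77 in NME and 7.14, 6.99 and 7.19 in AGR. These groups did not overlap but both means lay below the receptor reference (log2 FC 0.24, interval 0.07 to 0.41, limma adjusted p = 0.051), and 5 of the alternatives brought the gene under the threshold. Abcg1, which delivers cholesterol to lipoprotein particles, differed by −0.05 (interval −0.19 to 0.09), and Abca2, an endolysosomal transporter known from oligodendrocytes, by 0.26 (interval 0.04 to 0.47, limma adjusted p = 0.091) with overlapping arrays.

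The paralog pairs of this group did not pass and lay low. Abcg5 and Abcg8, which form the plant sterol exporter of gut and liver and share 209 bases of their head-to-head start windows, gave log2 FCs of −0.03 and −0.11 below the reference. Abca8a and Abca8b gave −0.10 and −0.18, also below it. Abcg4 gave 0.01, while Abcb4, the phosphatidylcholine transporter of bile, Abca4, the retinoid lipid transporter of photoreceptors, Abca6, Abca9 and Abca13 lay below the reference with log2 FCs between −0.06 and 0.00.

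Among the transporters of organelles, 2 of 3 mitochondrial, 0 of 2 lysosomal and 1 of 2 peroxisomal members were lower in AGR. All but Abcd2 lay above the receptor reference. Of all genes 11.6% were lower, and of all genes above the reference in at least 1 line 16.2%. Abcb6, a porphyrin transporter described in mitochondrial and other membranes, read 9.77, 9.68 and 9.90 in NME and 9.15, 9.13 and 9.08 in AGR. All NME arrays exceeded all AGR arrays, a 1.58-fold lower level (log2 FC −0.66, SE 0.06, limma adjusted p = 5.1e-04). Abcb8, a mitochondrial protein linked to iron export, was 1.33-fold lower (9.96 ± 0.07 against 9.55 ± 0.05, SD, n = 3, limma adjusted p = 0.0021), while Abcb10, which acts in haem synthesis, had a log2 FC of 0.10 (interval −0.06 to 0.25). Abcd3, the peroxisomal importer of branched-chain acyl-CoA and bile acid intermediates, was 1.32-fold lower (11.30 ± 0.03 against 10.89 ± 0.05, SD, n = 3, limma adjusted p = 0.0011), and its paralog Abcd2 lay below the reference at −0.03. The lysosomal proteins Abcb9, a peptide transporter, and Abcd4, which serves cobalamin export, both stood at −0.04.

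The soluble proteins gave the other higher calls, 2 of 4 measured, and all 4 lay above the receptor reference. Of all genes 12.6% were higher, and of all genes above the reference in at least 1 line 18.2%. Abcf3, the mammalian relative of yeast Gcn20, read 9.64, 9.44 and 9.64 in NME and 10.26, 10.32 and 10.38 in AGR. The lines were clearly apart, at a 1.68-fold higher level in AGR (log2 FC 0.75, SE 0.07, limma adjusted p = 4.3e-04). Abcf1, which binds initiation factor eIF2, was 1.19-fold higher (10.58 ± 0.12 against 10.83 ± 0.05, SD, n = 3, limma adjusted p = 0.038), a call lost in 6 of the 16 alternatives. Abce1, the ribosome recycling factor, and Abcf2 had log2 FCs of 0.02 and −0.10 and did not pass.

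The last 10 members did not pass. The sulfonylurea receptors Abcc8 and Abcc9, regulatory subunits of ATP-sensitive potassium channels, gave −0.07 and 0.01, and the bile salt export pump Abcb11 lay below the reference at −0.06. Abcc6, a liver protein needed for ATP release, was the nearest to the threshold, with NME arrays from 7.87 to 7.99 all above AGR arrays from 7.66 to 7.82 (log2 FC −0.18, limma adjusted p = 0.069). Abca14, Abca15, Abca16, Abca17, Abcc12 and Abcg3 lay below the reference with log2 FCs between −0.09 and 0.04.

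**Figure D4:**
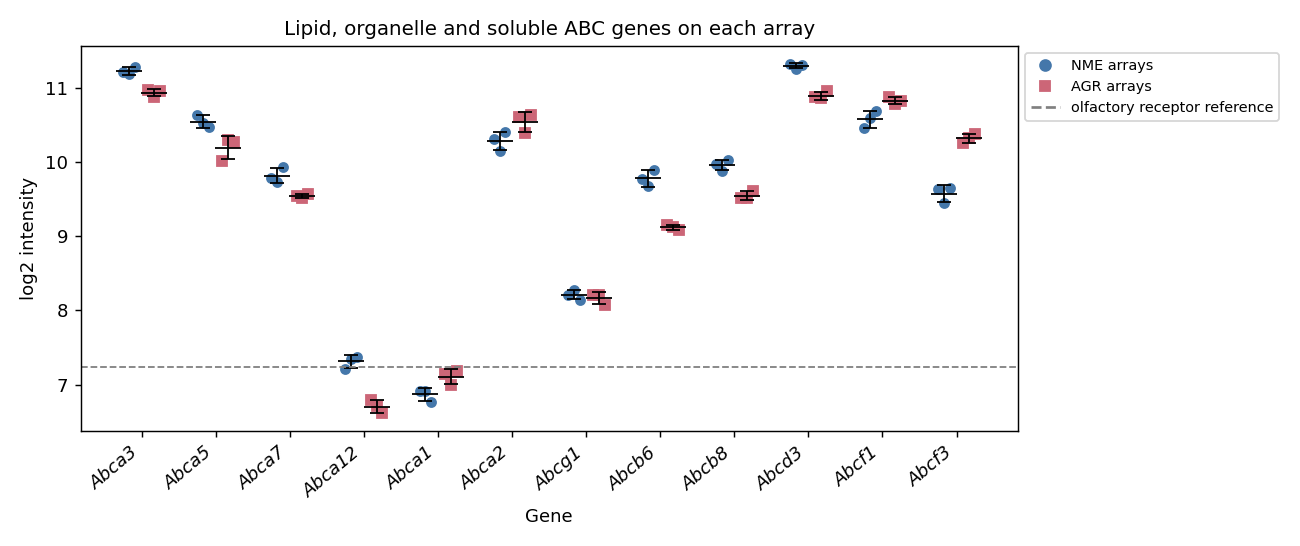
Log2 intensity (y axis) of 12 lipid, organelle and soluble ABC genes on each array, with the mean and SD of the 3 arrays of a line and a dashed line for the olfactory receptor reference. Abcb6, Abcb8 and Abcd3 were lower and Abcf3 was higher on every AGR array, and Abca12 and Abca1 straddle or lie under the reference. Heights are comparable within a gene only.

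Genes that work with ABC proteins were read from lists of their own. Of 18 measured transcriptional regulators, 2 were higher and 5 lower in AGR. Of all genes, 12.6% were higher and 11.6% lower, and of all genes above the receptor reference in at least 1 line, 18.2% and 16.2%. Hnf4a, a nuclear receptor of liver and gut epithelium, was 2.31-fold lower (log2 FC −1.21, limma adjusted p = 8.5e-06), and Nr1h3, the liver X receptor that activates cholesterol exporters, was 1.64-fold lower. Nfe2l2, a transcription factor of the oxidative stress response, had a log2 FC of −0.54, Nr1h4, the bile acid receptor, one of −0.41, and Srebf2, the activator of sterol synthesis, one of −0.32. Ahr, the xenobiotic receptor, at 0.64, and Pparg, a fatty acid receptor, at 0.33, were higher.

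Partners of the transporters changed in both directions too. The counts below include genes under the reference. Of all genes, 12.6% were higher and 11.6% lower, and of all genes above the reference in at least 1 line, 18.2% and 16.2%. Among 19 partners of drug exporters and other drug carriers, 4 were higher (Slco1a5 at 0.51, Slco5a1 at 0.41 but below the reference, Rdx at 0.18 and Slco3a1 at 0.18) and 3 were lower (the prostaglandin carrier Slco2a1 at −0.99, the apical scaffold gene Slc9a3r1 at −0.66 and the carnitine carrier Slc22a5 at −0.32). Of 10 lipid partners, Npc1, which releases cholesterol from lysosomes, at 0.71, and Scarb1, the HDL receptor, at 0.54, were higher, and Apoa1, the acceptor of Abca1 lipid, at −1.54, and Lrp1 at −1.23, were lower. Among 13 organelle partners Slc25a28 at 0.27 and Glrx5 at 0.23 were higher, and Pex3 at −0.70, Tapbp at −0.67 and Nfs1 at −0.36 were lower. Of 9 partners of the soluble factors Eif2s2 alone passed, lower at −0.29, and neither of the 2 potassium channel subunits did. Among 3 ABC genes that the symbol rule leaves out, the peptide transporter subunit Tap1 was higher at 0.30 (limma adjusted p = 0.0085), while its partner Tap2 at −0.01 and Cftr at 0.01 did not pass.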

How the data were processed

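Expression was measured on 6 Affymetrix mouse gene arrays, 3 of NME and 3 of AGR cells, grouped by their titles. The authors deposited 1 linear intensity per probe set and array. The submitters' processing notes name MAS5 with no version, a method built on mismatch probes, which this array design lacks, so how the intensities were normalised is not settled here. The deposited intensities were taken to log2 with no offset. Of 35557 probe sets, 21789 had 1 gene symbol in the platform annotation, 1621 had several and 12147 had none. Only the first kind was used, with the brightest probe set of each of 19938 genes and no filter on low values. AGR was compared with NME with limma 3.58.1 (lmFit and eBayes, R 4.3.3), with Benjamini-Hochberg adjustment over all genes, an adjusted p under 0.05 and, where stated, an FC over 2. Values on each array were given for members that passed with an FC over 1.5 and for drug exporters above the reference. Outside that rule, they were also given for Abcb1b and Abca1. Other members were named by size of change within each role. Members, lists and the chromosome 16 stretch were chosen with earlier results of these data known. The number of arrays limits the precision. Fits were tested on simulated data. Alternatives covered normalisation, offset, filters, probe choice, moderation, the methods' t-test, a replicate block and leaving out each array. List symbols were updated for 2 genes, and listed genes with no single-symbol probe set were not analysed here.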

Additional observations from a re-analysis of the deposited data

How the results depend on the processing

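Of the 14 members that passed, 10 kept their call under each of the 16 alternatives in which they were tested, Abca12 being removed by the filter at the median of all probe sets (Abcc1, Abcc2, Abcc3, Abcc4, Abca3, Abca12, Abcb6, Abcb8, Abcd3 and Abcf3), Abcb1a, Abca5, Abca7 and Abcf1 lost it under some, and 0 changed direction. Among the others, Abca1, Abca2, Abcc5 and Abcg8 passed under some. The count of higher lipid transporters, 0 as reported, was 1 after quantile normalisation, after centring the array medians, with a filter at the 25th percentile of all probe sets and with the trended, robust moderation, and 1 under the replicate block. Centring also brought 1 member, Abcc1, over an FC of 2 among the higher genes. The methods' t-test left 2 higher members and 1 higher drug exporter. When single arrays were left out, higher members ranged from 2 to 7, higher drug exporters from 1 to 3, higher lipid transporters from 0 to 2 and lower lipid transporters from 2 to 4. The main fit did not pair arrays by replicate number. Deviations of same-numbered arrays correlated at −0.06, 0.42 and 0.37 for replicates 1, 2 and 3. For replicates 2 and 3 the same-numbered AGR array was the best match of the NME array, and for replicate 1 it was not. Whether replicate numbers mark a pairing is therefore not settled. With the replicate block 4 members were higher, 10 were lower and 5040 genes passed in all against 4819 without it, Abcf1 lost its call and Abca2 gained one, and the cause was not tested. Signal limits the result for the 21 members at or below the receptor reference.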
